A study of Mus musculus with 4 samples.

Results

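Striated muscle sarcomere genes were followed in RNA of whole newborn mouse lenses, with 35 genes taken from a fixed list of contractile proteins, calcium-store proteins and myogenic factors. All 35 had at least 1 probe set whose platform annotation names that gene alone, out of 18193 genes with such a probe set, and each gene was read by its brightest probe set. The list was drawn up with the difference between the groups already known, so the differences of its genes are described here without a test. The study compared lenses of Hsf4-deficient mice with wild-type lenses at postnatal day 0.5. Hsf4 encodes a heat shock transcription factor of the lens. Per the labels, all 4 samples came from males of the 129S3 background, with 2 arrays labelled wild type and 2 labelled HSF4 knockout. The labels name no driver or allele of the knockout and do not say how many lenses or animals went into a sample. Whether the 2 arrays of a group are separate animals is thus not stated, and p-values cover the array-to-array spread alone, which could be purely technical.

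The sarcomere is the contractile unit of heart and skeletal muscle. Thin filaments of actin, carrying troponin and tropomyosin, slide past thick filaments of myosin, while titin and the Z-disc hold the lattice together. Calcium released from the sarcoplasmic reticulum binds troponin C and lets myosin engage actin. Fast fibres, slow fibres, heart and embryonic muscle use different genes for the same parts, and embryonic skeletal muscle also makes several of the cardiac forms. The lens itself is built of epithelial and fibre cells and contains no striated muscle. The extraocular muscles lie outside the globe.

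The arrays differed in brightness and in several checks of their labels. Median intensities as deposited ranged from 6.58 on array knockout 2 to 21.4 on array wild type 1, and all levels below are quantile-normalized intensities. Hsf4 itself measured 505 and 138 on arrays wild type 1 and 2 and 1212 and 413 on arrays knockout 1 and 2, which is higher within both numbers on the arrays that the labels call knockout. The position of that probe set relative to the deletion was not analysed here, and every direction below refers to the arrays as labelled. Xist, the RNA of the inactive X chromosome, measured 605 and 260 on arrays wild type 1 and knockout 1 but 58.0 and 9.01 on arrays wild type 2 and knockout 2. Eif2s3y, a Y-linked gene, measured 60.4 and 101 on the arrays numbered 1 and 208 and 161 on those numbered 2. Both transcripts were thus measured on the arrays numbered 1 and, with Xist dimmer, on array wild type 2. The sex of the animals of these arrays is not settled by them, and differences within each number are therefore given. The 3' to 5' signal ratio of the actin control probe sets was 1.89 on array knockout 2 and 1.51 to 1.67 on the others. Of the 8 lens markers with a probe set, all but Bfsp2 measured at least 2012 on every array. Bfsp2, a beaded filament protein, measured 180 and 268 on the wild-type arrays and 60.1 and 2907 on the arrays labelled knockout, and its partner Bfsp1 measured 5220 and 3785 against 2186 and 2060.

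For orientation, the 250 bases before the annotated start are shown for the genes with the largest differences, Actc1, Acta1 and Myl1, and for Casq1, which hardly differed. They come from RefSeq on GRCm38.p6, run 5′ to 3′ on the gene's strand (the minus strand for all 4), and lie at chr2:114052876-114053125, chr8:123894776-123895025, chr1:66945057-66945306 and chr1:172219896-172220145. Capitals mark a CArG box, the site of serum response factor, and E-boxes of the form CANNTG, the kind of site that myogenic factors bind.
Actc1: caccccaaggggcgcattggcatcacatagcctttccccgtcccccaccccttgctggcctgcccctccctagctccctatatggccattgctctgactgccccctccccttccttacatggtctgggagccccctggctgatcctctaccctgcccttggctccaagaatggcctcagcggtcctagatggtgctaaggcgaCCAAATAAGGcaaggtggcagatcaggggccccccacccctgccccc
Acta1: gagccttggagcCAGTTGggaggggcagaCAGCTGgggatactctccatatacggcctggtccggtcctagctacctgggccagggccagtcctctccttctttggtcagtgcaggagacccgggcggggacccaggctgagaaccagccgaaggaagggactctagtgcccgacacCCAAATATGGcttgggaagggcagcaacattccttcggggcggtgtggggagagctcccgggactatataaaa
Myl1: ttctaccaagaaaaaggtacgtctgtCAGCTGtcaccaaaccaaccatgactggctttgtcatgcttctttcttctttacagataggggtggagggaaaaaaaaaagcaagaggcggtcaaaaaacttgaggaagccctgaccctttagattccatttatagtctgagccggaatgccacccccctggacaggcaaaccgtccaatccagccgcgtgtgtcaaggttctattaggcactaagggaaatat
Casq1: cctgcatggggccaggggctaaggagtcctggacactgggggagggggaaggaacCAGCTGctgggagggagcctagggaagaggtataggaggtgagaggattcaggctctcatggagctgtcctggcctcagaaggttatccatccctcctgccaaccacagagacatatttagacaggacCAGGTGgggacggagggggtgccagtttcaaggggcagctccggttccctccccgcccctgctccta

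A start was listed for 26 of the 35 genes. Both strands of the same window were searched for each motif, and CAGCTG is 1 form of CANNTG, so those counts overlap. CANNTG occurred before 22 of the 26 genes, against 66.1% of 27018 promoters in the table. CAGCTG occurred before 10 of the 26, against 12.8% of all promoters. A CArG box lay before 3 of the 26, against 1.4% of all, and these were Actc1, Acta1 and Myom1. A MEF2 site was found before Ttn alone among the 26, and in 0.518% of all promoters. Casq1 carries CAGCTG although its level differed little between the groups, while the Actc1 window holds a CArG box and no CANNTG. These are matches of letters and not measured binding.

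As a whole, the muscle genes were lower on both arrays labelled knockout. The summed intensity of the 35 genes was 4109 and 2180 on arrays wild type 1 and 2, and 603 and 705 on arrays knockout 1 and 2. The 2 groups did not overlap in this sum. Ranked among all non-control probe sets of the same array by the deposited values, which no normalization touches, the median member stood at percentile 73.3 and 64.2 on the wild-type arrays and at 43.3 and 40.4 on the knockout arrays. In a sample of whole tissue, fewer cells of a type and less RNA per cell cannot be told apart.

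The log2 difference, knockout minus wild type, was taken on log2(intensity + 16), which understates the change of dim genes. Its median over the 35 genes was -1.05, and -1.64 within number 1 and -0.77 within number 2, while the median of all 11595 genes tested was -0.0097. Of the 35 genes, 29 were lower within both numbers (27.5% of all genes tested were), 1 was higher in both and 5 went both ways. The groups did not overlap and were lower for 27 of the 35, against 14.3% of all genes tested. With a difference of at least 2-fold as well the count was 18, against 0.759%. A filter on mean level was passed by 30 of the 35, and among those, as among the genes tested, the 3 counts were 26, 24 and 16. Neb, Des, Mb, Myod1 and Myog fell below it, and a gene could pass it through the wild-type arrays alone. The model fitted across all genes called 0.0345% of them, with 0.0259% lower and a single gene higher, and the 3 lower genes were Actc1, Myl1 and Acta1. Because the list was chosen with this contrast known, nothing is read from these counts.

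**Figure D1:**
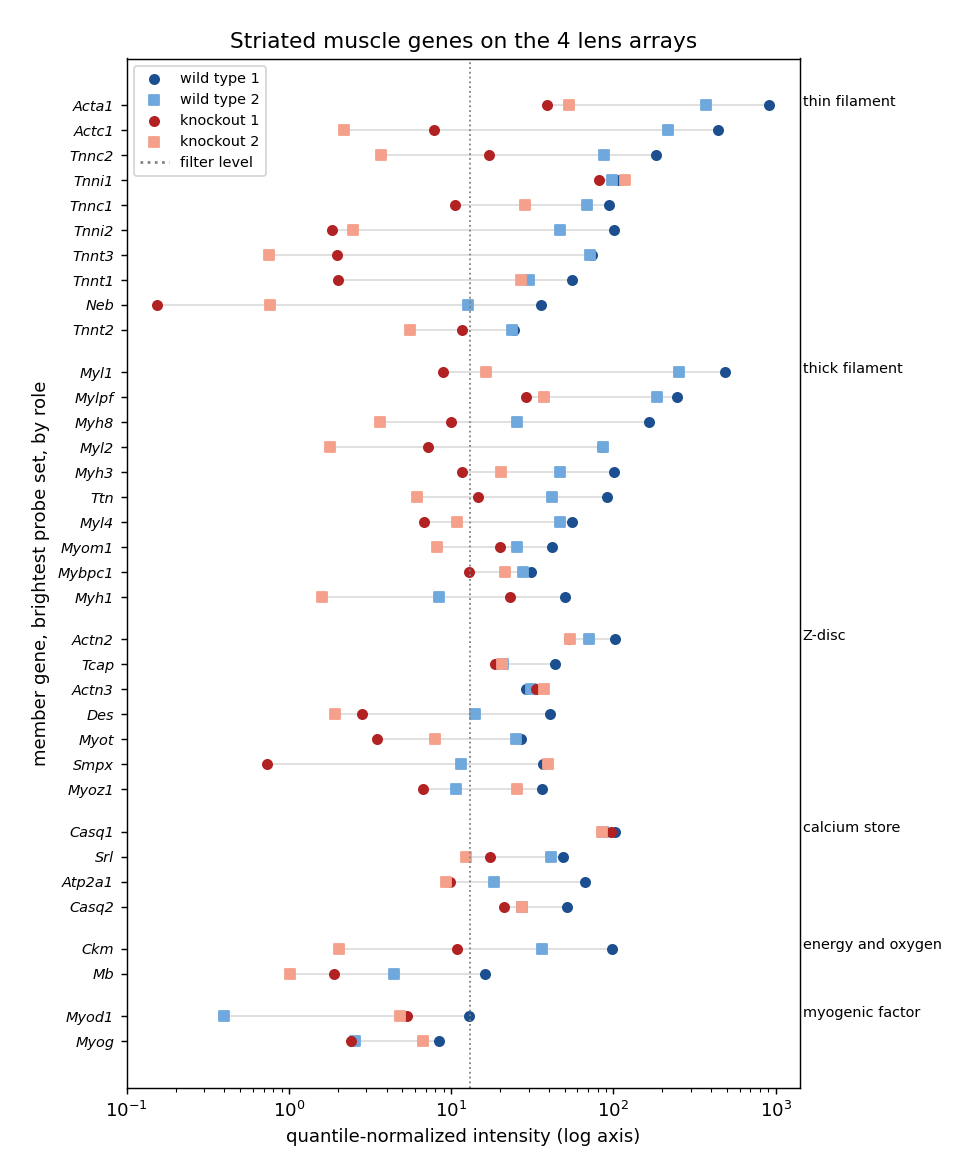
Quantile-normalized intensity (log axis) of the 35 muscle genes, 1 row per gene grouped by role, with 1 point per array (circles number 1, squares number 2, blue wild type, red knockout) and the filter level of 13.04 as a dotted line. Most blue points lie to the right of the red ones, while Tnni1, Actn3 and Casq1 have all 4 points close together.

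Of the 3 genes with the largest differences, Actc1 and Acta1 belong to the thin filament and Myl1 to the thick filament. Actc1, the cardiac alpha-actin that embryonic skeletal muscle also makes, measured 443 and 218 on the wild-type arrays and 7.84 and 2.18 on the arrays labelled knockout. Its log2 difference was -3.98 (SE 0.38), and the mean on the knockout arrays was 1.51% of that on the wild-type arrays. Acta1, the alpha-actin of adult skeletal muscle, measured 909 and 370 against 38.7 and 53.1 (log2 -3.28, SE 0.41). It kept 7.17% of its wild-type mean, above the filter level on both knockout arrays. Neb, nebulin, which runs along the thin filament, measured 36.0 and 12.7 against 0.15 and 0.77, and the groups did not overlap.

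The troponin complex has a tropomyosin-binding subunit (T), a calcium-binding subunit (C) and an inhibitory subunit (I), each with a fast and a slow gene. The fast subunits were dim on the arrays labelled knockout. Tnnt3, fast troponin T, measured 73.4 and 72.0 against 1.97 and 0.76 (log2 -2.35, SE 0.32). Tnnc2, fast troponin C, measured 184 and 87.5 against 17.1 and 3.70 (log2 -2.49, SE 0.41). Tnni2, fast troponin I, measured 101 and 46.9 against 1.83 and 2.47 (log2 -2.24, SE 0.38). For all 3 genes both knockout values lay below both wild-type values, with a gap wider on the log2 scale than the spread within either group.

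The slow subunits differed less evenly. Tnnc1, the troponin C of slow muscle and heart, measured 94.4 and 68.7 against 10.6 and 28.3 (log2 -1.49, SE 0.35). Tnnt1, slow troponin T, measured 55.9 and 30.0 against 2.01 and 26.9, so that within number 2 it differed by -0.10 and within number 1 by -2.0. Tnni1, slow troponin I, measured 108 and 98.3 against 81.8 and 118, with overlapping groups. Its log2 difference was -0.05 (SE 0.31) and ranged from -0.57 with values as deposited to 0.18 without array knockout 1. The slow gene thus differed less than its fast counterpart by 1.31 for troponin T, 1.00 for troponin C and 2.19 for troponin I on the log2 scale. For troponin T this was bound to be so. At a knockout intensity of 0 Tnnt1 would show -1.85, short of the -2.35 of Tnnt3. For troponin I the gap was 2.38 within number 1 and 2.00 within number 2, whereas for troponin T it was 0.32 and 2.29.

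Tnnt2, the troponin T of heart and embryonic muscle, measured 24.3 and 23.6 against 11.6 and 5.54 (log2 -0.71, SE 0.34). Troponin genes lie in pairs of an I and a T gene in RefSeq on GRCm38.p6. The fast pair Tnni2 and Tnnt3 on chromosome 7, with 1 coding gene between them, differed by -2.24 and -2.35. In the pair Tnni1 and Tnnt2 on chromosome 1, also with 1 coding gene between them, the differences were -0.05 and -0.71.

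Among thick-filament genes the light chains stood out. Myl1, the essential light chain of fast muscle, measured 489 and 255 on the wild-type arrays and 8.96 and 16.5 on the arrays labelled knockout (log2 -3.70, SE 0.36). Mylpf, the regulatory light chain of fast muscle, measured 248 and 187 against 29.0 and 37.4 (log2 -2.24, SE 0.31). Myl2, the regulatory light chain of slow muscle and ventricle, measured 85.5 and 86.1 against 7.21 and 1.78 (log2 -2.32, SE 0.32). Its 2 wild-type values nearly coincided, while those of Myl1 differed by 0.90 on the log2 scale. Myl4, the atrial and embryonic essential light chain, measured 55.2 and 46.9 against 6.83 and 10.8 (log2 -1.44, SE 0.32).

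The myosin heavy chains of developing muscle were also lower on the arrays labelled knockout. Myh3, the embryonic heavy chain, measured 101 and 47.1 against 11.6 and 20.3 (log2 -1.44, SE 0.38). Myh8, the perinatal heavy chain, measured 165 and 25.3 against 9.92 and 3.64 (log2 -1.94, SE 0.58). On the log2 scale the 2 wild-type values of Myh8 were further apart, by 2.13, than those of any other of the 35 genes. Its difference was -0.87 without array wild type 1. Myh1, a fast adult heavy chain, measured 50.3 and 8.37 against 23.1 and 1.6, with overlapping groups and a difference of -0.62 (SE 0.54) that became 0.11 without array wild type 1. The probe set of Myh1 that is brighter by mean intensity had -1.03. Myh3, Myh1 and Myh8 lie near each other on chromosome 11 and encode similar proteins, and cross-hybridization between them was not tested.

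Ttn, titin, which spans from the Z-disc to the middle of the thick filament, measured 91.1 and 41.6 against 14.6 and 6.16 (log2 -1.59, SE 0.39). Myom1, myomesin of the M-band, measured 42.0 and 25.3 against 20.04 and 8.15 (log2 -0.73, SE 0.36). Mybpc1, slow myosin-binding protein C, measured 30.9 and 27.8 against 12.8 and 21.5 (log2 -0.46, SE 0.33). All 10 thick-filament genes were lower within both numbers (27.5% of all genes tested were), and the groups of 9 of them did not overlap (14.3% of all genes were lower without overlap).

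The Z-disc genes gave the most mixed picture, with a median of -0.39 over 7 genes. Myot, myotilin, measured 26.9 and 25.2 against 3.47 and 7.95 (log2 -0.96, SE 0.34), and Des, the muscle intermediate filament desmin, measured 40.8 and 13.9 against 2.81 and 1.91, while a dimmer probe set of Des had 0.13 and both lay below the filter. Actn2, alpha-actinin of all striated fibres, measured 102 and 70.9 against 53.6 and 53.7 (log2 -0.54, SE 0.31). Actn3, the alpha-actinin of fast fibres, measured 29.0 and 31.2 against 33.5 and 37.5. It was the single gene of the 35 that was higher on both knockout arrays, by 0.16 (SE 0.31), and this turned to -0.18 with values as deposited. Tcap, which caps titin, was lower by 0.78 within number 1 but measured 20.9 and 20.7 within number 2. Smpx, a small protein of striated muscle, measured 37.0 and 11.5 against 0.73 and 39.4, and Myoz1, a calcineurin-binding protein of fast fibres, 36.3 and 10.7 against 6.70 and 25.3. For both genes array knockout 2 was brighter than array wild type 2, and the groups overlapped.

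Of the calcium-store genes, the pump and sarcalumenin were lower on the arrays labelled knockout. Atp2a1, the calcium pump of fast fibres, measured 67.0 and 18.4 against 9.79 and 9.31 (log2 -1.07, SE 0.43). Srl, sarcalumenin, which binds calcium in the sarcoplasmic reticulum, measured 49.2 and 41.1 against 17.4 and 12.3 (log2 -0.99, SE 0.32). Casq2, the calsequestrin of heart and slow fibres, measured 51.5 and 27.4 against 21.3 and 27.3. Casq1, the calsequestrin of fast fibres, measured 102 and 85.9 against 96.7 and 85.4, with overlapping groups. Its difference was -0.04 (SE 0.30) and ranged from -0.51 with values as deposited to 0.07 without array wild type 1.

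Ckm, muscle creatine kinase, measured 98.6 and 36.3 against 10.9 and 2.03 (log2 -1.82, SE 0.43), although a dimmer probe set below the filter had 0.28. Mb, myoglobin, was near the dim end throughout, with 16.1 and 4.45 against 1.89 and 1.02. The myogenic factors Myod1 and Myog, which switch on muscle genes in myoblasts, did not reach the filter level on any array. Myod1 measured 12.9 and 0.40 against 5.36 and 4.87, and Myog 8.44 and 2.54 against 2.40 and 6.69. Neither direction nor size of a difference can be read from levels this low.

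Grouped by fibre type, the median log2 difference was -1.65 for the 10 fast genes, -0.55 for the 7 slow genes, -1.44 for the 5 cardiac and embryonic genes and -0.99 for the 11 genes of all skeletal fibres. The slow median is the value of Mb, which lay below the filter and whose wild-type level allows no difference beyond -0.68. This order depends on the offset and on the probe set. With the second brightest probe set the fast median was -1.05 and the slow median -1.03. Averaging a gene's probe sets gave -1.03 and -0.59. With an offset of 1 in place of 16 the fast median was -1.63 and the slow median -2.0. The fast group also spans the whole range, from Myl1 at -3.70 to Actn3 at 0.16. No difference between fibre types was tested.

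Brightness limits how large a difference could become. With an offset of 16, a gene whose knockout intensity were 0 would show a log2 difference of -2.47 for Tnnt3, -2.43 for Tnni2 and -4.36 for Actc1, and the measured values of -2.35, -2.24 and -3.98 lie close to those limits. Mylpf and Acta1, with limits of -3.85 and -5.22, stopped well short of theirs at -2.24 and -3.28. Tnni1 and Casq1 had limits of -2.89 and -2.78 and measured -0.05 and -0.04.

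**Figure D2:**
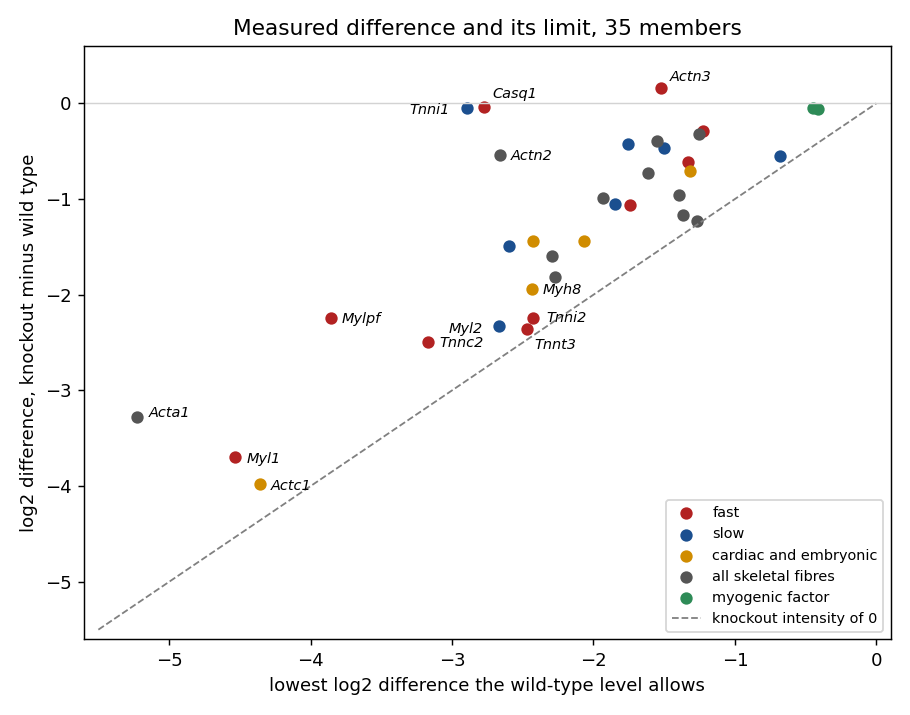
Each point is 1 of the 35 muscle genes, coloured by fibre class, with the lowest log2 difference its wild-type level allows on the x axis and the measured log2 difference on the y axis. On the dashed line the knockout intensity would be 0. Tnnt3 and Tnni2 lie near the line, and Tnni1, Casq1 and Actn3 lie near a difference of 0.

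The muscle genes also varied together within the wild-type group. Of the 35 genes, 33 were brighter on array wild type 1 than on array wild type 2, with a median log2 difference of 0.65, against 48.3% of all genes tested and a median of -0.02. Between the arrays labelled knockout, 16 of the 35 were brighter on array knockout 1 and the median was -0.05. Only 13 and 15 of the 35 reached the filter level on arrays knockout 1 and 2, against 33 and 28 on arrays wild type 1 and 2. The offset of 16 understates differences of dim genes, so whether the knockout arrays shared such a shift cannot be read from these values. Markers of fibroblasts and tendon went the other way between the wild-type arrays, with 3 of 12 brighter on array wild type 1.

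Between the groups, most fibroblast and tendon markers had lower values on the arrays labelled knockout. Their summed level was 1214 and 1922 on the wild-type arrays and 404 and 714 on the arrays labelled knockout, and 7 of the 8 tested did not overlap, all lower, against 14.3% of all genes. The median of the 8 was -1.41, and limma with Benjamini-Hochberg adjustment called 0 of them, with 6 at an unadjusted p under 0.05, against 2.35% of all genes. Of the defining markers, Col1a1 measured 117 and 92.1 against 13.7 and 21.5, close to the filter level on array knockout 1, and Col3a1 476 and 710 against 114 and 234. Fmod overlapped between the groups, and the dim tendon factor Scx, below the filter, went the other way with 1.63 and 1.42 against 10.5 and 24.8. Their part in the muscle result was not tested.

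**Figure D3:**
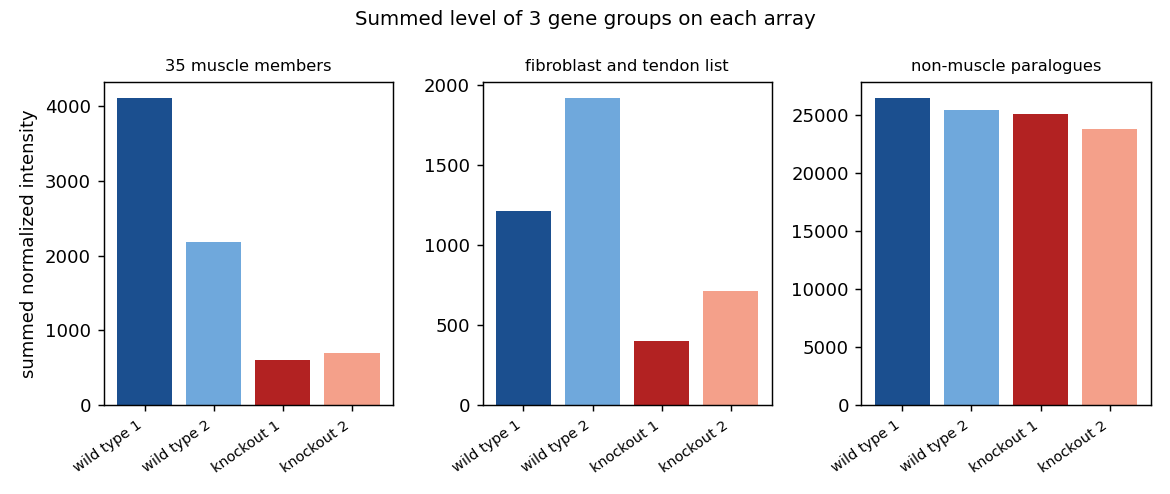
Bars give the summed quantile-normalized intensity on each array for the 35 muscle genes, the 12 fibroblast and tendon markers with a probe set and the 16 non-muscle paralogues. Muscle genes reach 4109 on array wild type 1 and 2180 on array wild type 2, and the fibroblast markers 1214 and 1922. Both are lower on the arrays labelled knockout. The paralogue sums are also lower there without overlap, at 26461 and 25398 on the wild-type arrays against 25086 and 23790.

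Markers of heart were at or near background on every array. None of the 10 reached the filter on mean level, their summed level was 77.3 and 86.9 on the wild-type arrays and 76.2 and 62.6 on the arrays labelled knockout, and the highest single value was 16.0. Nppa, the atrial natriuretic peptide gene, measured 7.84 and 14.99 against 9.76 and 9.59. Smooth muscle markers summed to 584 and 504 on the wild-type arrays and 418 and 517 on the arrays labelled knockout. In limma, 0 of the 6 tested were called, 1 had an unadjusted p under 0.05, and their median was -0.29. Acta2, smooth muscle alpha-actin, measured 225 and 220 against 171 and 304 and overlapped between the groups. Tagln, transgelin, measured 35.1 and 29.6 against 0.98 and 5.90 without overlap (log2 -1.32, limma adjusted p = 0.962). Mylk, myosin light chain kinase, also did not overlap (log2 -0.35), and of all genes tested 14.3% were lower without overlap.

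Non-muscle paralogues, the actins, myosins, actinins and calcium pump that most cells use, were set beside the muscle genes. All 16 were tested, none was called by limma and 0 had an unadjusted p under 0.05. Their median was -0.04 against -0.0097 for all genes tested, and -0.52 against -0.46 with values as deposited. The groups did not overlap for 3 lower genes (14.3% of all genes), Ckb at -0.60, Myh10 at -0.59 and Tpm4 at -0.36, and for 1 higher gene (12.7% of all genes). Actb measured 6070 and 6784 against 6017 and 6784, and Atp2a2, the calcium pump of most cells, 811 and 834 against 887 and 878.

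Further muscle genes that the list does not name were tested in the fit across all genes. They formed 4 lists with 104 genes, of which 96 had a probe set and 40 passed the filter. Here too a gene could pass the filter through the wild-type arrays alone. Myoz2, Csrp3, Sln and Myom2, described below, did so, with knockout values under the filter level of 13.04. The counts and p-values of lower genes carry this limit. In limma with Benjamini-Hochberg adjustment 0 of the 40 were called, the lowest adjusted p being 0.329. At an unadjusted p under 0.05 there were 6, of which 5 were lower, against 2.35% of all genes tested. The groups did not overlap for 15 lower genes and 5 higher ones, against 14.3% and 12.7% of all genes. The median of the 40 was -0.17.

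Genes of the sarcomere and Z-disc made up 12 of the 40, with a median of -0.14, and 4 of them had an unadjusted p under 0.05. Myoz2, a calcineurin-binding Z-disc protein of slow fibres and heart, measured 53.1 and 37.2 against 0.44 and 1.90 (log2 -1.82, SE 0.34, limma adjusted p = 0.329). Csrp3, the muscle LIM protein, measured 36.1 and 48.1 against 3.67 and 1.07 (log2 -1.66, SE 0.34, limma adjusted p = 0.434). Pdlim3, which binds alpha-actinin, had -1.14 and Myom2, a second myomesin, had -0.85, both with a limma adjusted p of 1. The tropomyosins Tpm1 and Tpm2, which also have forms outside muscle, had -0.07 and 0.03.

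Of the 10 genes of excitation-contraction coupling and the muscle membrane, 1 had an unadjusted p under 0.05. This was Sln, sarcolipin, an inhibitor of the calcium pump, which measured 34.3 and 46.6 against 0.44 and 2.89 (log2 -1.67, SE 0.34, limma adjusted p = 0.434). Hrc, Cacnb1 and Sgcb had -0.62, -0.33 and -0.29 without overlap of the groups, each with a limma adjusted p of 1. Unlike most of the 35 genes, Sln and Csrp3 were brighter on array wild type 2 than on array wild type 1.

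The 10 muscle energy genes had a median of -0.20, with 3 lower and 3 higher among those whose groups did not overlap (14.3% and 12.7% of all genes) and 0 at an unadjusted p under 0.05 in limma. Art1 and Pfkm had -0.63 and -0.45, and the respiratory chain subunits Cox7a1 and Cox6a2 had 0.54 and 0.51. Pgam2, the muscle form of phosphoglycerate mutase, was bright on all 4 arrays, at 2067 and 1554 against 1595 and 1462. In the list of lineage and neuromuscular junction genes, 8 were tested, with a median of -0.06. Eya1, a cofactor of homeobox transcription factors that also acts in the eye, measured 65.0 and 74.6 against 118 and 146 (log2 0.79, SE 0.30, limma adjusted p = 1). Megf10, Mef2c and Rapsn had -0.65, -0.61 and 0.35.

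With 1 array left out, the lone array of a group is assumed to vary like the pair of the other. For those fits only log2 differences are given here. Without array knockout 1 they were -1.76 for Myoz2, -1.76 for Csrp3, -1.57 for Sln and -1.52 for Pdlim3. Without array knockout 2 they were -1.88 for Myoz2, -1.56 for Csrp3 and -1.77 for Sln. With all 4 arrays, median centring tested 43 further muscle genes, and limma called Myoz2, Csrp3 and Sln, all lower. It called 12 genes over the whole array, against 4 in the main fit. With the array number as a block limma called the same 3 genes of the 40, and 200 genes over the whole array.

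**Figure D4:**
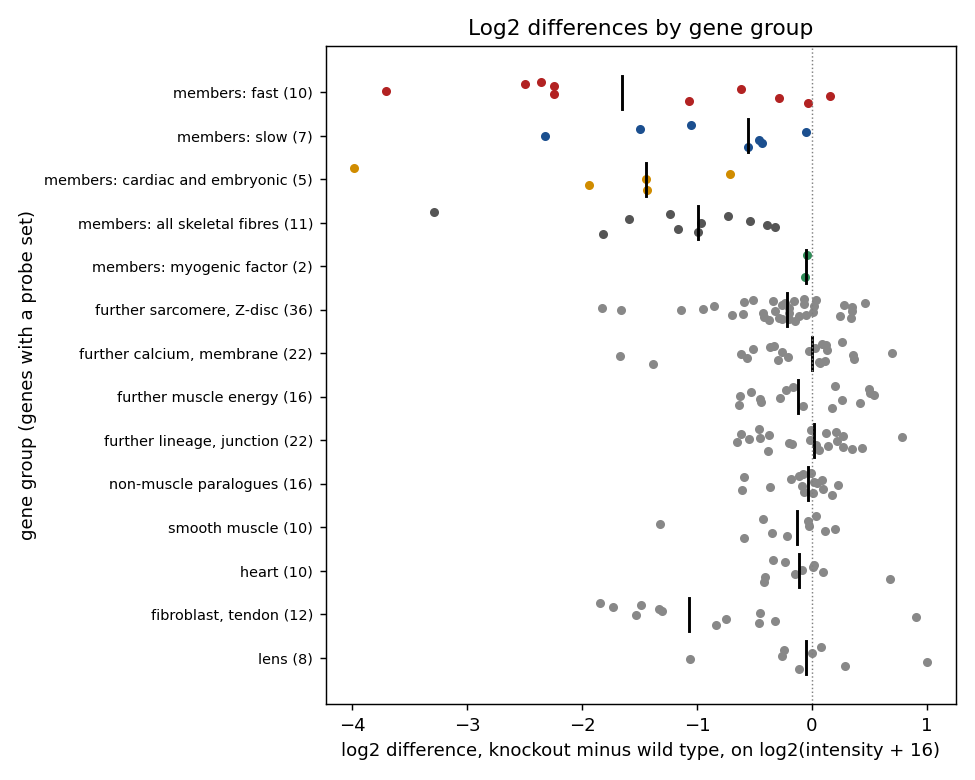
Log2 difference, knockout minus wild type on log2(intensity + 16), for every gene with a probe set, 1 point per gene and 1 row per group, with the median as a black bar. Muscle members of the fast class have a median of -1.65 and the non-muscle paralogues one of -0.04, and the further muscle lists hold a few genes far below 0 beside many near it.

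For 6 lists of markers of other cell types, the summed levels overlapped between the groups. Summed levels of endothelial markers were 612 and 493 on the wild-type arrays and 501 and 747 on the arrays labelled knockout, and those of macrophages 658 and 587 against 602 and 740. Pigment cell markers summed to 570 and 922 against 822 and 1088, and erythroid markers to 91.7 and 158 against 135 and 514. Neural retina markers summed to 1208 and 1532 against 1411 and 800, and Schwann cell and nerve markers to 1412 and 1329 against 1211 and 1684. Most of the latter sums came from Pmp22 alone, at 1324 and 1244 against 1122 and 1636, so they say little about the other markers of that list. Limma called 0 of their 32 tested genes, and 0 had an unadjusted p under 0.05.

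Most of the 35 genes rest on 1 probe set. Of 19 further probe sets, 4 passed the filter, for Tnni2, Myh1, Mybpc1 and Ttn, with log2 differences of -0.67, -1.03, -1.03 and -1.16. The groups overlapped for those of Tnni2 (57.04 and 9.34 against 12.5 and 9.57) and Myh1 (67.3 and 8.37 against 12.7 and 0.89) and not for those of Mybpc1 and Ttn. All 4 were brighter on array wild type 1 than on array wild type 2. For Mybpc1 (39.2 and 37.2) and Ttn (53.0 and 42.4) the difference was smaller. Without array knockout 2 the median over the 35 genes was -1.13, as large as with all 4 arrays. Without array wild type 1 it was -0.73.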

How the data were processed

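Lens RNA of newborn mice was hybridised to Affymetrix arrays, 1 per sample. The intensity values the authors deposited are linear, 1 per probe set and array, while the sources used here do not state how probes were summarised or background corrected. Per the labels' protocols, lenses were held in RNAlater and RNA was isolated on columns. The 45101 probe sets were brought to 1 distribution by quantile normalization (limma 3.58.1, R 4.3.3) and used as log2(intensity + 16). The 64 control probe sets were then left out. Each gene was read by the probe set with the highest mean log2 value. Genes with a mean of at least 4.86, the median of the probe sets, were tested (11595) with limma's linear model, a variance trend and Benjamini-Hochberg adjustment at 0.05. The procedure was tested on simulated data. The number of arrays limits the precision. The 35 genes, the gene lists and the alternatives were chosen with earlier results of these data known. Named were all 35 genes and, per further muscle list, called genes or otherwise up to 4 with the largest non-overlapping difference. Acta2, Tagln, Mylk, Actb, Ckb, Myh10, Tpm4, Atp2a2, Col1a1, Col3a1, Fmod, Scx, Bfsp1, Bfsp2, Nppa, Tpm1, Tpm2, Pgam2, Pmp22, Xist, Eif2s3y and the lens markers were named after their values were seen. Alternative normalizations, offsets, filters, variance models and probe set rules, the array number as a block and leaving out each array were tried.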

Additional observations from a re-analysis of the deposited data

How the results depend on the processing

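The 4 genes called over the whole array became 0 without the filter, under averaging of a gene's probe sets and on the deposited scale, 7 with trimmed-mean scaling and 12 with median centring, and ranged from 4 to 262 when 1 array was left out (262 without array knockout 1, 61 without array knockout 2 and 7 without array wild type 2). The count of further muscle genes called, 0, became 3 with median centring and ranged from 0 to 4 when 1 array was left out. With the array number as a replicate block 200 genes and 3 further muscle genes were called. Deviations of same-numbered arrays correlated at 0.434 across genes, and the labels do not say what a shared number stands for, so with 2 pairs the block was kept as an alternative. The median log2 difference of the 35 genes was -2.0 with an offset of 1, -0.45 with an offset of 64 and from -1.37 to -0.73 when 1 array was left out. Values as deposited and median centring moved the median of all tested genes to -0.46 and -0.29. Cox6a2 turned to -0.036 with values as deposited and -0.0070 with the second probe set. With quantile normalization after log2, offsets of 1 and 64, a filter at the 70th percentile, no variance trend, a robust fit, the second brightest probe set, or the brightest one by mean intensity (added after seeing the data), 3 to 5 genes and 0 further muscle genes were called. The cause of these changes was not tested. All alternatives listed for these results were run.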

Other observations

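Some further genes known from muscle or connective tissue, chosen after their values were seen, were also lower on the arrays labelled knockout. In all, 88 genes, 0.759% of those tested, were at least 2-fold lower without overlap of the groups. Of these, 16 were among the 30 of the 35 muscle genes that passed the filter. Another 4 were among the 40 tested genes of the further muscle lists, and 68 were in neither. None of the genes named next was called by limma. Tecrl, an enoyl-CoA reductase-like gene of heart and skeletal muscle, measured 142 and 175 on the wild-type arrays and 8.24 and 46.1 on the arrays labelled knockout (log2 -2.17, SE 0.43, limma adjusted p = 0.434). Sh3bgr, a gene of heart and skeletal muscle, measured 49.7 and 57.2 against 1.41 and 16.7 (log2 -1.54). Car3, the carbonic anhydrase abundant in muscle and fat, measured 102 and 43.4 against 20.8 and 12.0. Lox, which crosslinks collagen and elastin, measured 33.7 and 91.1 against 11.8 and 4.88, and Eln, elastin, 69.9 and 133 against 21.01 and 34.7. Like most fibroblast markers, though not Col1a1, and unlike most of the 35 muscle genes, Lox and Eln were brighter on array wild type 2 than on array wild type 1. The log2 difference, wild type 1 minus wild type 2, was -1.11 for Lox and -0.79 for Eln. Tecrl and Sh3bgr went the same way by less, at -0.28 and -0.16, while Car3 had 0.99. Whether the pattern sets connective tissue genes apart from muscle genes was not tested.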
